A study of Mus musculus with 12 samples.

Results

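The hippocampal arrays of TIF-IA CaMKCreERT2 mutants and their controls come from animals that carry identification numbers in 2 ranges, and the expression of 4 animals numbered in the 300s was set against that of 7 animals numbered in the 200s, out of 11 animals in all. The members were chosen by number alone. The 300s are, by their label names, mut_353, mut_354 and mut_356 and con_355, and the 200s are mut_237, mut_241 and mut_243 and con_239, con_240, con_242 and con_244. The mutants carry floxed alleles of Rrn3, which encodes the RNA polymerase I factor TIF-IA, and an inducible Cre driven by the CaMK promoter, which is active in forebrain excitatory neurons. The controls are labelled wildtype, whereas the study's methods describe them as littermates with the floxed alleles and no Cre. All animals are labelled C57Bl/6N, all received tamoxifen as 2-month-old adults, and total RNA was taken from hippocampal sections 4 weeks later. Nothing in the labels or methods says what the number ranges mark, so that litter, date of birth, day of injection, dissection, extraction and array run cannot be told apart, and the only control of the 300s is 1 animal.

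The hippocampus is built of excitatory granule cells of the dentate gyrus and pyramidal cells of the CA fields, with interneurons, glia and vessels between them. It borders on the choroid plexus, which makes cerebrospinal fluid and is known for very high transthyretin (Ttr), and on the thalamus and hypothalamus. In bulk RNA from such tissue, fewer cells of a type and less RNA per cell cannot be told apart. An array reads a transcript through short probes, so that with 1 probe an amount and a difference in the transcript's own sequence or splicing cannot be told apart either. Mouse strains are known to carry alternative beta-globin haplotypes, the single haplotype with Hbb-bs and Hbb-bt, which C57BL mice carry, and the diffuse haplotype with Hbb-b1 and Hbb-b2, and they also differ in the genes of the major histocompatibility complex (H2 genes in the mouse).

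Among the globin probes, that of Hbb-b2 passed the adjusted threshold given below, and those of other globin genes did not. Of the 10 probes of Hbb-bs and Hbb-bt, 3 did not overlap between the number ranges, against 2.29% of all probes above background, and Hba-a1 overlapped. The starts of 4 of these other globin genes are shown, each from 130 bases before to 20 bases after the annotated start. They were taken from RefSeq (GRCm38.p6) and are read 5′ to 3′ on the gene's strand. The reference used held these 4 and no entry for Hbb-b2. Capitals mark the CCAAT box, the CACCC box and the ATATAA letters of the TATA box, searched on both strands.
Hbb-bs, chr7:103827909-103828058, minus strand: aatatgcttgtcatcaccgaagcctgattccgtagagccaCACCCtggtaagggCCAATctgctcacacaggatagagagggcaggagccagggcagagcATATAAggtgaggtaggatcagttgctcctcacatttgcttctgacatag
Hbb-bt, chr7:103813904-103814053, minus strand: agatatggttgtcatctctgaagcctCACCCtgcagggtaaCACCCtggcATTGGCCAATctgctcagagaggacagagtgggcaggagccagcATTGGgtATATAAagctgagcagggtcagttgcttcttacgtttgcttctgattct
Hba-a1, chr11:32283542-32283691, plus strand: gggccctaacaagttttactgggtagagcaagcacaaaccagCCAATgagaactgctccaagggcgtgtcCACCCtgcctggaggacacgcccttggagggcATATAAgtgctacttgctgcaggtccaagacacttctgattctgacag
Hbq1a, chr11:32299939-32300088, plus strand: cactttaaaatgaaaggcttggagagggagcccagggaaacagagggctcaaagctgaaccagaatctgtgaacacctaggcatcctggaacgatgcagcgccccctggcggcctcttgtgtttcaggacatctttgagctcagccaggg
All 3 motifs were found for the adult beta-globin genes Hbb-bs and Hbb-bt and the adult alpha-globin gene Hba-a1, and none (0) for the theta-globin gene Hbq1a. In Hbb-bt, CCAAT occurs 3 times, and the occurrence 80 bases before the start, in reverse, directly adjoins the one 75 bases before it. Of 32851 promoter windows of the same length, 24.2% hold CCAAT, 37% hold CACCC, 5.16% hold ATATAA and 0.399% hold all 3. A link between these motifs and the differences between the number ranges was not tested.

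Values below are log2 signals after background correction and quantile normalization, and differences are those of the 300s minus the 200s with genotype as a term of the fit (limma, standard error in brackets where given). A probe was counted at an adjusted p under 0.05 (Benjamini-Hochberg over all 45135 probes) and, more widely, at the study's own threshold of an unadjusted p under 0.001. At the first threshold 21 probes (0.0465%) differed between the number ranges, 8 higher (0.0177%) and 13 lower (0.0288%) in the 300s. At the second 290 probes (0.643%) differed, 134 higher (0.297%) and 156 lower (0.346%), and 4817 (10.7%) had an unadjusted p under 0.05, of which 2689 (5.96%) were higher and 2128 (4.71%) lower. In all of the 21 probes the lowest animal of one range lay above the highest of the other, which is so for 785 of all probes (1.74%). An exact two-sided permutation of the number ranges within genotype gave p = 0.01 for each of the 21, the smallest that its 100 arrangements allow; since these probes were chosen for their difference and do not overlap, this is no independent check. The p-values set a difference against the spread left between these animals within a number range after the genotype term. Each range is a single set of animals, so that variation between such sets is not measured. The number at an adjusted p under 0.05 depended on single animals: it was 2 without mut_241, mut_356 or con_355, 6 without mut_243, 7 without con_242, 9 without con_239, 12 without con_240 and 42 without con_244. The number at an unadjusted p under 0.001 was 158 without con_355, 188 without mut_354 and 467 without mut_353. With arrays scaled to their 75th percentile, which moved the median difference of all probes to -0.33, 59 of 301 probes at that p were higher.

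**Figure D1:**
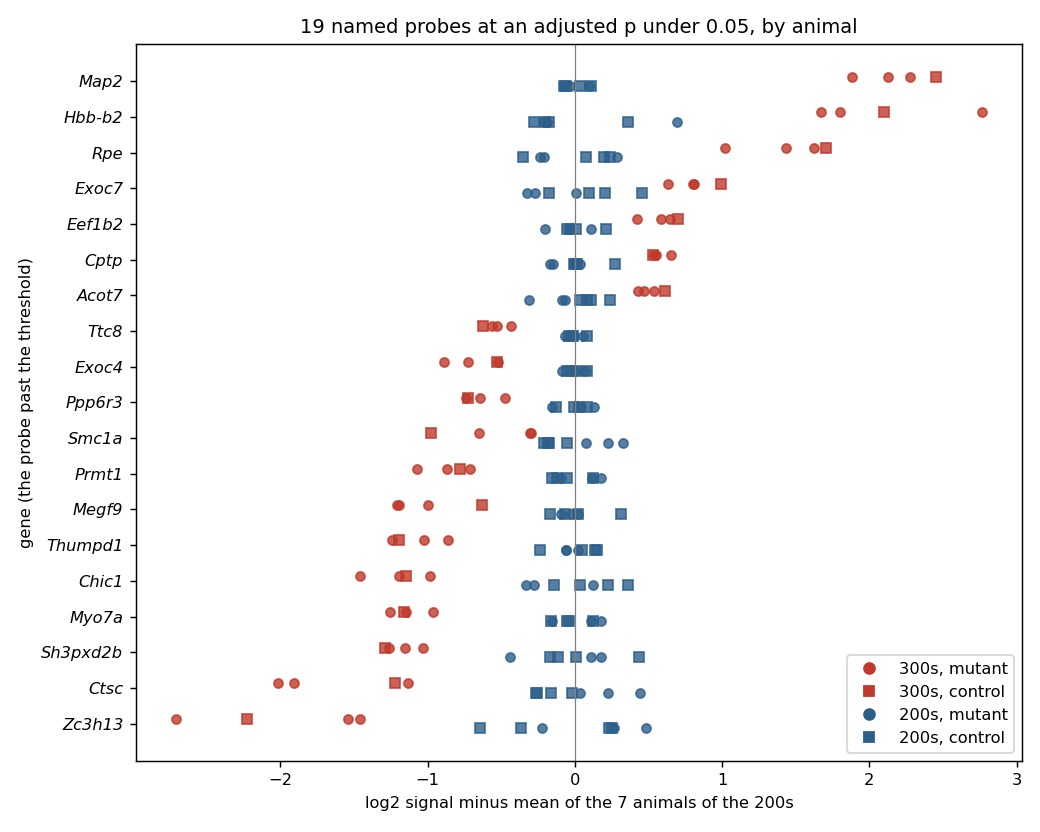
Log2 signal of each animal minus the mean of the 7 animals of the 200s (x axis) for the 19 named probes at an adjusted p under 0.05 (y axis), with the 300s in red, the 200s in blue, mutants as circles and controls as squares. The probe of Map2 stands farthest above the 200s and that of Zc3h13 farthest below.

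The clearest difference was in 1 probe of Map2, the microtubule-associated protein of dendrites. Its signal was 6.32, 6.08 and 6.48 in mut_353, mut_354 and mut_356 and 6.65 in con_355, against 4.12 to 4.31 (median 4.16) in the 200s, where no animal was above background. The 300s were all clearly above background while every animal of the 200s lay within a narrow band near the floor. The probe was at least 3.79-fold higher in the 300s (log2 difference 2.22, standard error 0.10, adjusted p = 2.2e-05), the fold being the mean of the 300s over the lowest signal that counted as above background in the 200s, or the probe's own where higher. The other probes of Map2 did not share this pattern. The brightest one, at 12.35 ± 0.14 (SD, n = 4) in the 300s and 11.97 ± 0.17 (SD, n = 7) in the 200s, differed by 0.42 (adjusted p = 0.185), and a pair of further probes had differences of -0.76 and -0.52 (unadjusted p = 0.0398 and 0.00189). Of the 5 other Map2 probes above background, 3 had the sign of the called probe and 2 differed in the opposite direction at an unadjusted p under 0.05.

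Rpe, an epimerase of the pentose phosphate pathway, lies beside Map2 on chromosome 1 with only Unc80 between them among the genes measured (order from RefSeq, GRCm38.p6). Rpe had 6.28, 5.68 and 6.09 in the mutants and 6.37 in the control of the 300s, against 4.30 to 4.95 (median 4.74) in the 200s, where 3 of 7 animals were above background. All 4 animals of the 300s were thus above all 7 of the 200s, and Rpe was 2.83-fold higher by the measured means, most of those in the 200s being near the floor (log2 difference 1.501, standard error 0.17, adjusted p = 0.0263). The brightest probe of Unc80, a subunit of the sodium leak channel complex, had a log2 difference of 0.63 (unadjusted p = 0.0235, adjusted p = 0.379) and overlapped between the ranges. Eef1b2, which encodes a subunit of the translation elongation factor that reloads GTP, is also on chromosome 1, 21 measured genes from first to last counting Rpe, and its called probe was 0.62 higher (standard error 0.09, adjusted p = 0.0496). Of those 21 genes 14 had a positive and 7 a negative difference at their brightest probe, with a median of 0.09, and the brightest probe of Eef1b2 itself differed by 0.12 (adjusted p = 0.743).

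Among the globin probes the direction depended on the gene. The single probe for Hbb-b2 read 7.13, 6.17 and 6.04 in mut_353, mut_354 and mut_356 and 6.47 in con_355, against 4.09 to 5.06 (median 4.18) in the 200s, where 1 of 7 animals was above background. It was 4.13-fold higher in the 300s by the measured means, those of the 200s being mostly near the floor (log2 difference 2.05, standard error 0.26, adjusted p = 0.0401). All 10 probes of Hbb-bs (6) and Hbb-bt (4) were lower in the 300s at an unadjusted p under 0.05 and none (0) passed the adjustment. Of all probes above background 15.2% differed in either direction at that p. The probes of a gene share its transcript and these 2 genes are near-identical, so that the 10 are not independent. The most different Hbb-bs probe read 8.62, 11.11 and 11.0004 in the mutants and 10.86 in the control of the 300s, against 11.62 to 12.61 (median 12.33) in the 200s (difference -1.85, standard error 0.47, adjusted p = 0.197). The most different Hbb-bt probe read 4.85, 7.48 and 7.19 in the mutants and 7.51 in the control of the 300s, against 7.69 to 8.90 (median 8.47) in the 200s (difference -1.55, adjusted p = 0.284). mut_353 was lowest in both of these and highest in Hbb-b2, and the ranges did not overlap in any of the 3 probes.

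The brightest probes of the same genes differed less. They had differences of -0.55 for Hbb-bs and -0.53 for Hbb-bt (adjusted p = 0.270 and 0.320), and both overlapped between the ranges. Hba-a1, the alpha-globin partner, had -0.48 (unadjusted p = 0.0195), and Alas2, the first enzyme of haem synthesis in red cells, -0.71 (unadjusted p = 0.00650); neither passed the adjustment. Hbq1a read 5.57, 7.10 and 6.25 in the mutants and 5.77 in the control of the 300s, against 4.20 to 4.93 (median 4.28) in the 200s, where no animal was above background. It was at least 3.13-fold higher in the 300s at an unadjusted p of 7.87e-05, short of the adjusted threshold (adjusted p = 0.0756). These globin probes other than those of Hbb-b2 and Hbq1a, and the Unc80 probe, were chosen after their values were seen.

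**Figure D2:**
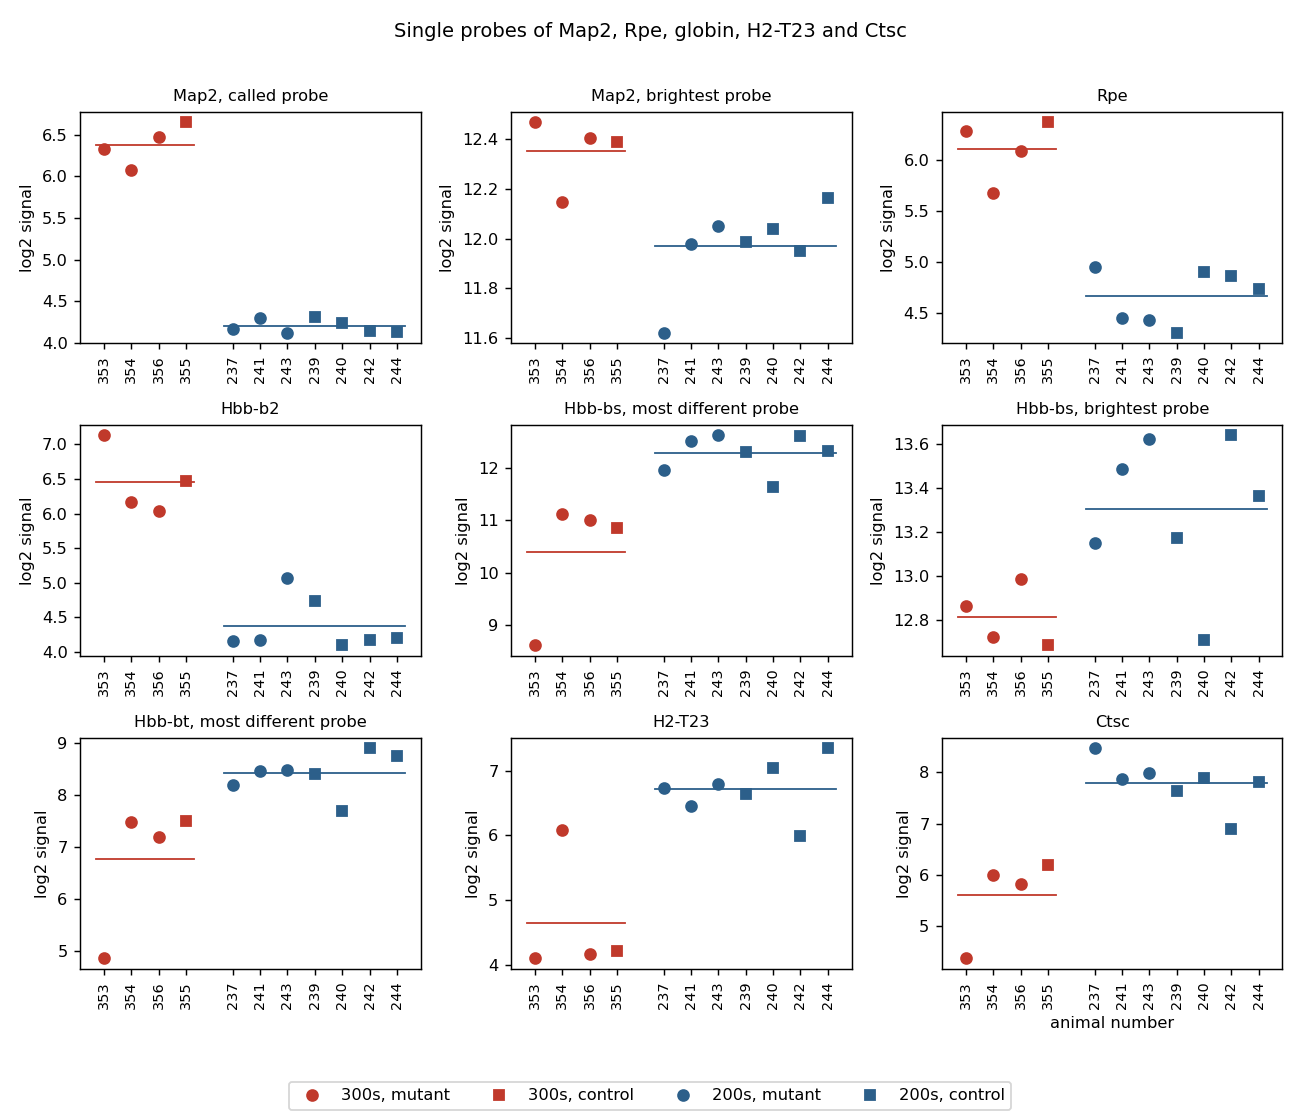
Log2 signal (y axis, a scale of its own in each panel) of 9 probes in each animal (x axis, animal number), with the 300s left of the 200s, circles for mutants, squares for controls and lines for the mean of each range. The called Map2 probe, Rpe and Hbb-b2 are high in all 4 animals of the 300s, while H2-T23 is low in 3 of them and not in mut_354.

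Genes of the major histocompatibility complex, on chromosome 17, differed in both directions. The H2 probe with the largest difference was one of H2-T23, which encodes the class Ib molecule Qa-1. It read 4.10, 6.08 and 4.16 in mut_353, mut_354 and mut_356 and 4.22 in con_355, against 5.99 to 7.34 (median 6.73) in the 200s. mut_354 thus lay within the 200s, while the other animals of the 300s were near the floor (difference -2.11, standard error 0.41, unadjusted p = 0.000392, adjusted p = 0.112). H2-Q5 showed the same split, with 5.90, 7.65 and 6.00 in the mutants and 5.74 in the control of the 300s, against 7.16 to 8.39 (median 7.75) in the 200s. The 2 probes of H2-D1 that differed went the other way, by 0.56 and 0.67 (unadjusted p = 0.0114 and 0.00700). Of 38 H2 probes above background, which cover 23 genes, 6 were higher and 10 lower in the 300s at an unadjusted p under 0.05, or 42.1% against 15.2% of all 29070 probes above background; none (0) passed the adjustment, and the H2 genes share much of their sequence, so that their probes can cross-react. The H2-D1 and further H2 probes were added after values were seen.

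Chromosome 7, which carries the beta-globin genes, held 5 of the called probes. Myo7a, an unconventional myosin of hair cells and retina, read 5.21, 5.02 and 4.92 in the mutants and 5.01 in the control of the 300s, against 6.01 to 6.35 (median 6.13) in the 200s (difference -1.15, standard error 0.09, adjusted p = 0.00315). Thumpd1, an adaptor for acetylation of transfer RNA, read 8.70, 9.08 and 8.92 in the mutants and 8.75 in the control of the 300s, against 9.71 to 10.09 (median 9.97) in the 200s (difference -1.08, standard error 0.10, adjusted p = 0.0118). In both genes the gap between the ranges was wider than the spread within either. Ctsc, which encodes the lysosomal protease cathepsin C, had differences of -2.24, -1.61 and -1.07 at its 3 probes, of which 1 passed the adjustment (adjusted p = 0.0459). Its brightest probe read 4.37, 6.00 and 5.83 in the mutants and 6.20 in the control of the 300s, against 6.89 to 8.47 (median 7.88) in the 200s. Prmt1, the main arginine methyltransferase, fell by 0.87 (adjusted p = 0.0263). Hbb-b2 is the fifth. Between Ctsc and Myo7a lie 36 measured genes counting both, of which 25 had a negative and 11 a positive difference and 3 an unadjusted p under 0.001 at the brightest probe, so that most genes of the interval did not pass either threshold. On chromosome 7 as a whole, 27 of 1861 named probes above background (1.45%) were at an unadjusted p under 0.001, against 230 of 23853 (0.964%) over all chromosomes and a highest share of 1.62% on chromosome 4 (24 of 1481).

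The remaining called probes belonged to several cellular functions. Of the exocyst, which tethers secretory vesicles to the plasma membrane, Exoc7 rose by 0.91 (adjusted p = 0.0468) and the called probe of Exoc4 fell by 0.65 (adjusted p = 0.0391). The 2 other Exoc4 probes above background had -0.11 and -0.04 (unadjusted p = 0.359 and 0.810). Exoc7 read 8.61, 8.78 and 8.77 in the mutants and 8.97 in the control of the 300s, against 7.65 to 8.43 (median 7.98) in the 200s, where con_244 came closest to the 300s. The called probe of Zc3h13, a component of the complex that writes N6-methyladenosine on RNA, fell by 2.08 (standard error 0.28, adjusted p = 0.0496). It read 6.79, 5.55 and 6.71 in the mutants and 6.03 in the control of the 300s, against 7.61 to 8.74 (median 8.48) in the 200s. The 2 other Zc3h13 probes above background had -0.39 and -0.17 (unadjusted p = 0.129 and 0.371). Smc1a, a cohesin subunit on the X chromosome, fell by 0.69 (adjusted p = 0.0459), and the 2 other Smc1a probes above background were lower as well at an unadjusted p under 0.05.

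Further called probes were smaller in size or fainter. Acot7, an acyl-CoA thioesterase of neurons, rose by 0.59 (adjusted p = 0.0384), and Cptp, a transfer protein for ceramide-1-phosphate that was not above background in any animal of the 200s at this probe, by at least 1.38-fold (adjusted p = 0.0496). Lower in the 300s were Sh3pxd2b, an adaptor of podosomes (-1.18), Chic1 on the X chromosome (-1.13), Megf9, a membrane protein with epidermal growth factor-like repeats (-0.94), Ppp6r3, a regulatory subunit of a serine/threonine phosphatase (-0.66) and Ttc8, a subunit of the BBSome of the primary cilium (-0.55) (adjusted p from 0.0236 for Ttc8 to 0.0459 for Sh3pxd2b). Ttc8 had the tightest groups, with 6.66, 6.62 and 6.75 in the mutants and 6.56 in the control of the 300s, against 7.12 to 7.27 (median 7.17) in the 200s. The other 2 of the 21 probes carry no gene name, with differences of 0.65 and -0.97.

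Other probes of the called genes gave a mixed picture. Exoc7, Hbb-b2, Megf9, Myo7a, Rpe and Thumpd1 have no other probe above background. Beside the called probes, the 19 named genes have 25 other probes above background, of which 20 had the same sign, 7 of them at an unadjusted p under 0.05, and 2, both of Map2, differed in the opposite direction at that p. The brightest probes of Chic1, Ttc8, Sh3pxd2b and Eef1b2, which are not the called ones, differed by -0.13, -0.18, 0.21 and 0.12 (adjusted p = 0.852, 0.651, 0.687 and 0.743). The brightest of Acot7, also not the called one, differed by 0.14 (adjusted p = 0.427), and the further Acot7 probes by 0.46 and 0.11 (adjusted p = 0.0890 and 0.668). The other Ppp6r3 probes above background had -0.19 and -0.01 (unadjusted p = 0.167 and 0.953). The brightest probe of Cptp split the animals in another way. It read 6.998 in mut_353 and 4.11, 4.16 and 4.22 in the other animals of the 300s, and 6.73 to 7.42 in mut_237 and mut_243 and con_239 and con_240 against 4.15 to 4.21 in the remaining animals of the 200s.

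Named probes at an unadjusted p under 0.001 that did not pass the adjustment filled the list of large differences. Higher in the 300s were those of Bricd5 (both probes, 1.47 and 1.40), Borcs7, a subunit of the complex that positions lysosomes (1.38), Ndufb10 of respiratory complex I (1.26), Mcph1, known for its role in brain size (1.16), Chpf, which builds chondroitin chains (0.99) and Ptpa, an activator of a protein phosphatase (0.97). Borcs7 read 5.39, 5.26 and 6.18 in the mutants and 6.44 in the control of the 300s, against 4.17 to 4.94 (median 4.36) in the 200s. Adgrl4, an adhesion receptor of endothelial cells, had -1.37, with 6.58, 5.69 and 6.24 in the mutants and 6.53 in the control of the 300s, against 7.09 to 7.86 (median 7.71) in the 200s. The brightest probes of Mcph1 and Ndufb10 differed by -0.15 and -0.19 and overlapped between the ranges.

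Markers of neighbouring tissue differed widely between animals, and not along the number ranges alone. Ttr read 14.70 in mut_353 but 9.26 and 9.35 in mut_354 and mut_356 and 9.73 in con_355, against 11.57 to 14.73 (median 14.07) in the 200s (difference -3.35, standard error 1.06, unadjusted p = 0.00968, adjusted p = 0.284). The other 3 animals of the 300s were thus below every animal of the 200s, and mut_353 was among the highest. Of 16 choroid plexus and ependyma genes above background all had a negative difference, with a median of -1.31 (over 14452 genes above background the median was 0.01). Of 17 with a probe, 2 were lower at an unadjusted p under 0.05, against 7.56% of all genes above background, and none (0) at 0.001. The summed level of the list, as the mean of its centred log2 signals, was 1.60 in mut_353 and -1.50 to -1.24 in the other 3 animals of the 300s, against -1.23 to 1.83 in the 200s. Oxt, the oxytocin gene of the hypothalamus, read 8.41, 9.99 and 5.53 in mut_353, mut_354 and mut_356 and 5.48 in con_355, against 4.56 to 5.33 (median 5.00) in the 200s (difference 2.19, adjusted p = 0.347), and Avp, the vasopressin gene, read 9.85 and 8.81 in mut_353 and mut_354 and 4.34 and 4.31 in mut_356 and con_355, against 4.14 to 5.18 (median 4.61) in the 200s. Of 11 hypothalamic and habenular genes 9 had a positive difference (median 0.72), and without mut_353 and mut_354, an alternative chosen after seeing the data, the median was -0.13.

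**Figure D3:**
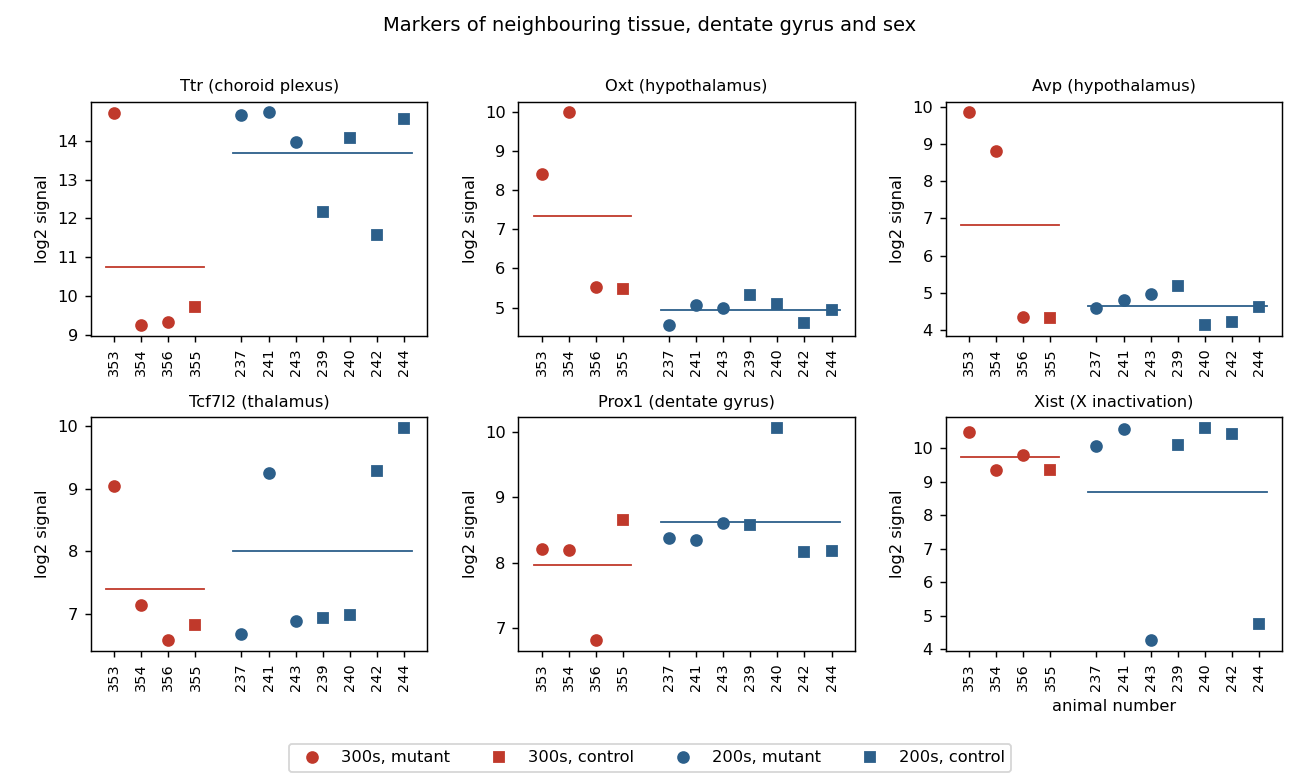
Log2 signal (y axis) of markers of choroid plexus, hypothalamus, thalamus and dentate gyrus and of Xist in each animal (x axis, animal number), with the 300s left of the 200s, circles for mutants, squares for controls and lines for means. Ttr is low in 3 of 4 animals of the 300s, Oxt and Avp are high in mut_353 and mut_354, and Xist is low in 2 animals of the 200s.

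Other markers overlapped between the ranges. Tcf7l2 of the thalamus was high in mut_353 (9.04) and at 6.58 to 7.15 in the rest of the 300s, against 6.69 to 9.96 (median 6.99) in the 200s, and the 17 thalamic genes had a median of 0.01 in mutants and -1.07 in controls. Prox1 of granule cells was lowest in mut_356 (6.80) and at 8.19 to 8.66 in the rest of the 300s, against 8.17 to 10.07 (median 8.38) in the 200s, and 8 of 10 dentate gyrus genes had a negative difference (median -0.37) with a median of -0.57 in mutants and 0.32 in controls. Defining markers of both hippocampal fields and neighbouring tissue were therefore present in both ranges, and their part in the differences above was not tested. Xist, the transcript of the inactive X chromosome, was at 9.34 to 10.49 in all 4 animals of the 300s, and at 10.07 to 10.60 in 5 and at 4.25 and 4.76 in 2 animals of the 200s, mut_243 and con_244. Kdm5d, a gene of the Y chromosome, read 6.78 in mut_243 and 6.04 in con_244 and 4.11 to 4.41 in every other animal. By these 2 transcripts mut_243 and con_244 were male, and all 4 animals of the 300s were female. Sex was not a term of the fit. Rrn3 itself read 7.71, 7.82 and 7.83 in the mutants and 8.51 in the control of the 300s, against 7.67 to 7.95 in the mutants and 8.21 to 8.34 in the controls of the 200s, and did not differ between the ranges beyond error (0.06, standard error 0.08, unadjusted p = 0.428).

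Lists of resident cell types had small median differences. Of 15 interneuron genes 12 had a positive difference (median 0.20), 2 of them at an unadjusted p under 0.05 and none (0) with a negative one at that p, a count near what the share of all genes would give. Over the 14452 genes above background, 49.0% had a negative difference, and 8.16% were higher and 7.56% lower at that p. Sst, the somatostatin gene of an interneuron class, read 12.72, 12.92 and 12.76 in the mutants and 12.74 in the control of the 300s, against 12.14 to 12.60 (median 12.45) in the 200s (difference 0.38, standard error 0.11, unadjusted p = 0.00712), without overlap. Of 14 endothelial genes above background 10 had a negative difference (median -0.22), with 3 lower at that p, among them the vascular growth factor receptor Flt1 (-0.50, unadjusted p = 0.00485) and the tight junction gene Cldn5 (-0.37, unadjusted p = 0.0192). Of 15 microglial genes 11 had a positive difference (median 0.12), with Tyrobp at 0.51 and its partner receptor Trem2 at 0.46 (unadjusted p = 0.00638 and 0.00800), which are the 2 at that p. The microglial median was -0.01 among the mutants, which is also the difference left without con_355, and 0.49 for con_355 against the controls of the 200s. None of these genes (0) passed the adjustment, and the medians were 0.02 for astrocytes and -0.07 for oligodendrocyte precursors.

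Most genes of the postsynapse and of ion channels had a negative difference. Of 20 genes of glutamate receptors and the postsynaptic density 16 had a negative difference (median -0.16). At an unadjusted p under 0.05, 5 were lower, against 7.56% of all genes above background, and 1 at 0.001. The mean level of the list was -0.28 to -0.02 in the 300s, against values up to 0.22 in the 200s. The lowest animal of the 200s lay only just above the highest of the 300s. Of the 41 lists this was the only 1 without overlap, and of single probes above background 2.29% did not overlap. With so many lists, 1 without overlap does not set this list apart. Gria1, a subunit of AMPA receptors, read 11.55, 11.71 and 11.62 in the mutants and 11.997 in the control of the 300s, against 12.02 to 12.77 (median 12.44) in the 200s (difference -0.72, standard error 0.15, unadjusted p = 0.000776, adjusted p = 0.143). Its 3 other probes, chosen after values were seen, had -0.35, -0.32 and -0.31 and overlapped between the ranges. Grm5, a metabotropic receptor, had -0.35 (unadjusted p = 0.00599). Of 24 potassium, sodium and calcium channel genes 20 had a negative difference (median -0.07) and 5 were lower at an unadjusted p under 0.05, led by the sodium channel Scn3a (-0.63, unadjusted p = 0.00222) and the potassium channel Kcna1 (-0.71, unadjusted p = 0.0148). The channel list was lowest in mut_354 and con_355, at -0.28 and -0.20, with 0.11 and -0.07 in mut_353 and mut_356, and the postsynaptic list was lowest in mut_353 and mut_354, at -0.28 and -0.21. Across all genes, those with a long genomic span were lower relative to short ones in mut_354 and con_355 (a level of long minus short genes of -0.31 and -0.18), and the part of this in either list was not tested. With 1 animal left out the median was -0.24 to -0.11 for the postsynaptic and -0.14 to -0.05 for the channel list. The presynaptic list was even, with 9 of 18 in each direction.

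Genes of RNA splicing and nuclear speckles had a negative difference in 21 of 24 (median -0.17), with 6 lower at an unadjusted p under 0.05, against 7.56% of all genes above background, and none (0) higher. The median was -0.07 without con_355 and -0.33 without mut_353. Srsf10, a splicing factor of the serine/arginine-rich family, read 6.55, 6.14 and 6.27 in the mutants and 6.10 in the control of the 300s, against 6.52 to 7.004 (median 6.79) in the 200s (difference -0.55, standard error 0.09, unadjusted p = 0.000136, adjusted p = 0.0888). Luc7l3, a component near the U1 particle, read 11.71, 10.51 and 11.27 in the mutants and 10.32 in the control of the 300s, against 11.60 to 12.33 (median 11.87) in the 200s (difference -1.10, unadjusted p = 0.00108). mut_353 lay within the 200s for both. The level of the list was 0.11 and 0.05 in mut_353 and mut_356 and -0.38 and -0.39 in mut_354 and con_355, against -0.08 to 0.29 in the 200s, so that the list was low in the same 2 animals in which long genes were low. Respiratory chain genes ran the other way, with a positive difference in 55 of 66 (median 0.10, and 0.05 among the mutants and 0.07 without mut_354), but 6 of 68 with a probe were higher at an unadjusted p under 0.05, a share close to the 8.16% of all genes above background. Their level was set apart in mut_354 and con_355, at 0.24 and 0.18, from mut_353 and mut_356, at -0.14 and -0.02, and the 200s, at -0.13 to 0.06. Of 50 detected ribosomal protein genes, 36 had positive differences and 14 negative ones (median 0.07), and 8 of 53 with a probe were higher and 4 lower at that p, against 8.16% and 7.56% of all genes, with Rps3 at -0.45 and Rpl10a at 0.22 (unadjusted p = 0.00228 and 0.00327).

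**Figure D4:**
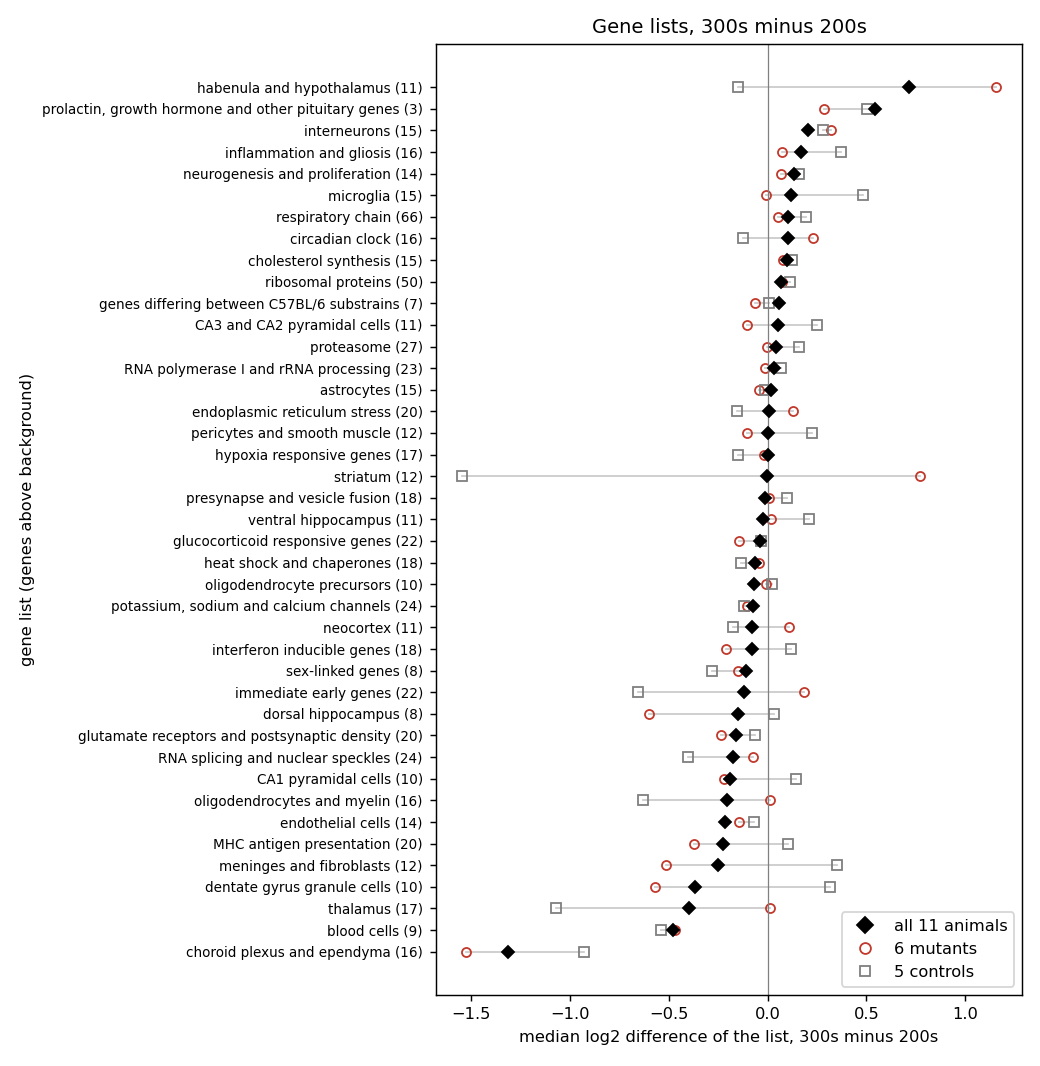
Median log2 difference, 300s minus 200s (x axis), of the 41 gene lists (y axis, with the number of genes above background in brackets), over all 11 animals with genotype as a term (black), among the 6 mutants (circles) and among the 5 controls (squares), of which 1 is in the 300s. Choroid plexus genes lie lowest at -1.31 and hypothalamic genes highest at 0.72, and mutants and controls lie on opposite sides of 0 for several lists, among them striatum, thalamus and dentate gyrus.

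The lists for endoplasmic reticulum stress, heat shock, RNA polymerase I and the proteasome had medians of 0.01, -0.06, 0.03 and 0.04, and those for the clock and for inflammation 0.10 and 0.17. Pdia3, a disulfide isomerase of the endoplasmic reticulum, read 9.95, 9.24 and 9.50 in the mutants and 9.67 in the control of the 300s, against 10.08 to 10.77 (median 10.62) in the 200s (difference -0.95, standard error 0.17, unadjusted p = 0.000218, adjusted p = 0.0919). It is 1 of 4 of the 22 stress genes with a probe that were lower at an unadjusted p under 0.05, and 1 was higher. Of all genes above background, 7.56% were lower and 8.16% higher at that p. Of heat shock genes, Hsp90aa1 and its co-chaperone Ahsa1 had -0.59 and -0.39 (unadjusted p = 0.00525 and 0.00484). Of the clock, Per3 had -0.62, Clock -0.40 and Nr1d1, which represses Clock's partner Arntl, 0.81 (unadjusted p = 0.000476, 0.0157 and 0.00672). Arntl itself had -0.08 (unadjusted p = 0.593). Per3 was above background in 1 animal of the 300s and 5 of the 200s, and Clock was highest of all animals in mut_353 (9.96). Of 16 clock genes, 9 had a positive difference. Of RNA polymerase I and rRNA processing, Cd3eap, a polymerase I subunit, read 7.78, 8.08 and 7.72 in the mutants and 7.67 in the control of the 300s, against 8.12 to 8.96 (median 8.80) in the 200s (difference -0.97, standard error 0.15, unadjusted p = 7.71e-05, adjusted p = 0.0756). The nucleolar protein Ncl had -0.53 and the polymerase subunit Polr1b 0.54 (unadjusted p = 0.00373 and 0.00804), and 12 of 23 genes of that list had a positive difference. Psmd11 of the proteasome had 0.61 (unadjusted p = 0.000233). Of inflammation and gliosis genes, 12 of 16 had a positive difference. At an unadjusted p under 0.05, 4 of 18 with a probe were higher, against 8.16% of all genes above background. Among them were Serpina3n, a protease inhibitor of reactive astrocytes (1.52, unadjusted p = 0.0108), and the chemokine Ccl3 (at least 1.10-fold, unadjusted p = 0.000586). Serpina3n overlapped between the ranges, with 11.40 to 12.65 in the 300s and 12.21 in mut_237. Ccl3 was above background in 3 animals of the 300s and none (0) of the 200s. Of the 10 genes listed as differing between C57BL/6 substrains, 2 were lower at an unadjusted p under 0.05, against 7.56% of all genes above background. They were Glo1 at -0.23 and Ide at -0.34, and none (0) passed the adjustment.

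The wider difference was not carried evenly by the animals. When each animal was left out, the probes above background at an unadjusted p under 0.001 were found from the other 10, and the left-out animal was placed on each. mut_354 was nearer to the 300s than to the 200s on 80.1% of 186 probes and mut_356 on 68.6% of 229, but con_355 only on 46.8% of 154 and mut_353 on 36.9% of 464. The animals of the 200s were nearer to their own range on 54.1% (con_244) to 89.1% (con_240). Between genotypes the difference could be compared only through 1 control. Among the mutants alone, 3 against 3, 147 probes (0.326%) were at an unadjusted p under 0.001, of which 146 were above background, and none (0) at an adjusted p under 0.05; 116 of the 146 (79.5%) had the same sign in con_355 against the 4 controls of the 200s, where 58.8% of all 29070 probes above background did. In the fit of 4 groups, the difference between the ranges differed between mutants and controls for none of the probes at an adjusted p under 0.05 (0%), for 74 at an unadjusted p under 0.001 (0.164%) and for 2065 at 0.05 (4.58%).

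The genes higher and lower in the 300s differed in length. Those at an unadjusted p under 0.001 and detected in at least 4 animals had a median genomic span, from start to end with introns (RefSeq, GRCm38.p6), of 13477 bases where higher (93 probes) and 57774 bases where lower (128 probes), against 25885 bases over all 18452 such probes. Over those 18452 probes the rank correlation of the log2 difference with span was -0.24. The genes were measured in the same animals and are not independent replicates, so that no p is given. It was -0.16 among mutants and -0.24 among controls, and -0.01 for the difference between genotypes. In the upper quartile of span 1.24% of probes were lower and 0.238% higher at an unadjusted p under 0.001, and in the lower quartile 0.195% lower and 0.845% higher. The level of the upper quartile minus the lower was -0.31 in mut_354 and -0.18 in con_355, and 0.05 and -0.01 in mut_353 and mut_356, against -0.01 to 0.16 in the 200s, so that 2 of the 4 animals of the 300s lay below all others and 2 within the 200s.

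**Figure D5:**
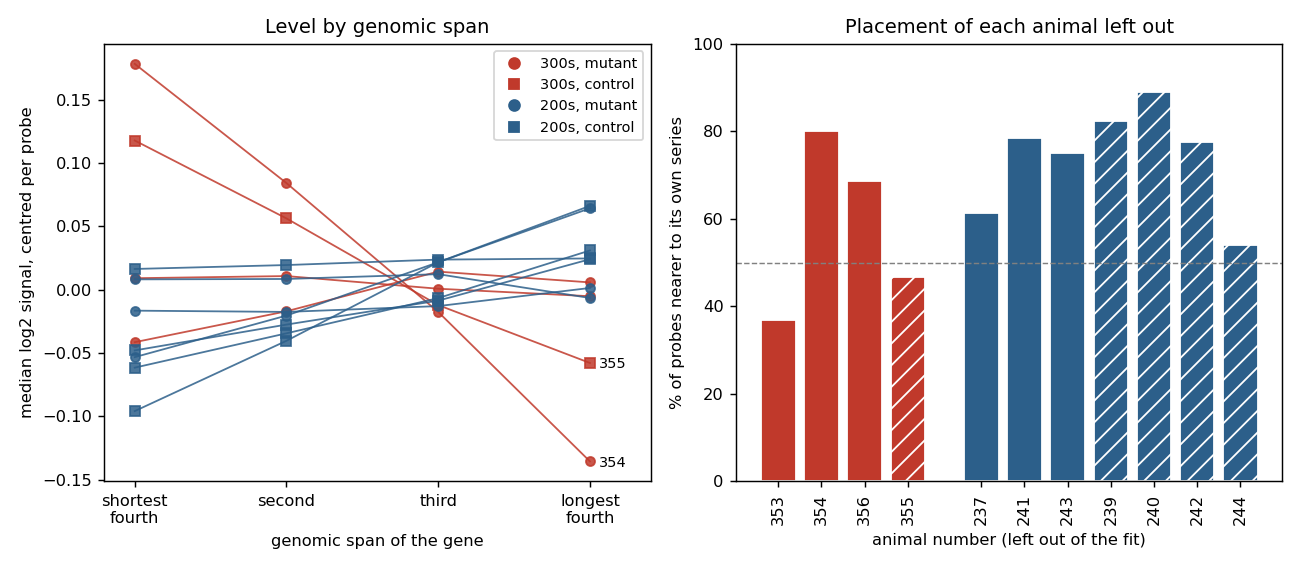
Left, median log2 signal centred per probe (y axis) in quartiles of genes by genomic span (x axis), 1 line per animal, 300s in red and 200s in blue, in which mut_354 and con_355 fall with span. Right, percent of probes on which each animal left out of the fit lay nearer to its own range (y axis; dashed line at 50), with mut_353 lowest at 36.9% and con_240 highest at 89.1%.

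Brightness of the arrays moved with the number ranges. The median raw intensity was 103.7 to 107.5 on the 5 arrays of the 300s and 83.1 to 106.5 on the 7 of the 200s, where con_244 alone was as bright as the 300s and the others reached 95.5. Probes detected numbered 20934 to 21835 per array in the 300s and 19193 to 21889 in the 200s. With the log2 median intensity as a further term, an alternative chosen after seeing the data, 1 probe, that of Map2, stayed at an adjusted p under 0.05 and 41 at an unadjusted p under 0.001. Since brightness and number range went together in all animals but con_244, this fit can hardly tell them apart. The part of brightness in the differences was not tested. In the fit without that term, leaving out con_244 gave 42 probes at the adjusted and 344 at the unadjusted threshold. Pairs of animals correlated at a median of 0.978 within the 300s, 0.979 within the 200s and 0.974 across, and the 2 arrays of mut_356 at 0.992.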

How the data were processed

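Total RNA of hippocampal sections was hybridised by the authors to Illumina mouse whole-genome BeadChips, 12 arrays of 11 animals. The deposited table holds, per probe and array, an intensity on a linear scale without background subtraction and a detection p-value. The authors also deposited processed log2 values, used here as an alternative; the methods and the submitters' notes name quantile normalization and limma, with versions not given in the sources used here.

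In R 4.3.3 with limma 3.58.1, background was removed by the normexp model guided by the detection p-values (offset 16), 954 unnamed control lines were dropped, arrays were quantile normalized, and values were put on the log2 scale. The mean of arrays mut_356A and mut_356B stood for mut_356. All 45135 probes were fitted (lmFit, eBayes) with number range and genotype as terms. A probe was above background in a range if 1 animal had a detection p-value under 0.01. Platform annotation gives 1 symbol for 34773 probes, several for 18 and none for 10344. Folds against a range without detection are bounds. Gene lists (41) take each gene's brightest probe and are described, not tested. The members and lists were chosen with earlier results of these data known. Named genes were the 15 largest differences in each direction at an adjusted p under 0.05, filled from an unadjusted p under 0.001, the 3 members of each list with the smallest p, and 8 fixed genes (Rrn3, Fkbp5, Per2, Ttr, Mbp, Tcf7l2, Prox1, Xist); others are marked as chosen after values were seen. The steps were tested on simulated data. The number of arrays limits the precision.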

Additional observations from a re-analysis of the deposited data

Results flagged for a closer look

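In groups of 4 to 7 animals the highest or lowest animal was set against the others by Dixon's criterion for a lone value, in 306 checks on 153 named genes and 82 on the gene lists, of which 26 and 6 were met; chance alone meets it in about 1 in 20 groups. All values are log2 signals, and for lists the mean centred level. Among the 300s, mut_353 stood apart in Ttr (14.70), Igf2 (12.74), Ntng1 (10.46) and Cptp (5.03). mut_354 stood apart in Sst (12.92), Ndufb10 (9.31), H2-Q5 (7.65), H2-T23 (6.08), Pdgfrb (4.98) and Irf7 (4.89). con_355 stood apart in Rrn3 (8.51), where it is the only control among mutants, and in Gh (6.90). Of the lists, mut_353 was highest in choroid plexus and ependyma (1.60), oligodendrocyte precursors (0.44) and endoplasmic reticulum stress (0.034).

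Among the 200s, con_240 stood apart in Errfi1 (11.82), Per2 (11.33), Vegfa (10.46), Prox1 (10.07) and Megf9 (8.85). con_244 stood apart in Stx1a (10.65), Ncl (8.81), Cd3eap (8.12) and S100a10 (6.56). mut_243 stood apart in Per3 (5.50), Col1a1 (5.43) and Pomc (4.34), mut_241 in Synpo2 (5.33) and con_239 in Tubb3 (4.73). Of the lists, con_240 was highest in immediate early genes (1.31) and dentate gyrus granule cells (0.67), and con_242 stood apart in interneurons (0.16).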

How the results depend on the processing

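Against 21 probes at an adjusted p under 0.05, there were 40 without background correction, 12 with cyclic loess, 46 with 75th percentile scaling, 115 among probes detected in at least 4 animals, 63 without the genotype term, 42 with array weights and 0 in mutants only (limma; 147 at an unadjusted p under 0.001 there, against 290). Of alternatives chosen after seeing the data, median intensity as a term left 1 (and 41 at the unadjusted threshold), leaving out mut_353 and mut_354 left 4 (185), and leaving out mut_243 and con_244 left 7. Leaving out 1 animal gave 2 to 42 (158 to 467). At an adjusted p under 0.05, the difference between the ranges differed between mutants and controls for 3 probes with 75th percentile scaling. It did so for 1 without mut_243 and con_244, and for 0 to 2 with 1 animal left out. None (0) of the 19 named called probes changed sign in the 25 alternatives; Map2 was past the threshold in 24, Myo7a in 22 and Thumpd1 in 19, and the others in 4 to 16. The fits of mutants only lack con_355 and rest on fewer animals; otherwise the cause was not tested.

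Other genes changed sign. With 75th percentile scaling these were Car9 (-0.055), Ccl3 (-0.00907), Irf7 (-0.12), Kdm5c (-0.057), Ndst4 (-0.17), Nr4a1 (-0.16) and Pdgfrb (-0.042). In mutants only they were Egr4 (0.015), Foxp1 (0.14), Mbp (0.044), Pde10a (0.10) and Rrn3 (-0.020). With median intensity as a term they were Egr4 (0.10), Ermn (0.12), Per2 (0.12), Rrn3 (-0.031), Synpo2 (0.16) and Tac2 (-0.087). Rrn3 was -0.12 without the genotype term, Xist -0.67 without mut_243 and con_244, and Nr4a1 -0.032 and the hypothalamic list -0.13 without mut_353 and mut_354. With 1 animal left out the ranges spanned 0 for Egr4 (-0.69 to 0.015), Foxp1 (-0.30 to 0.14), Lypd1 (-0.0075 to 0.50), Mbp (-0.30 to 0.044), Pde10a (-0.98 to 0.10), Rrn3 (-0.020 to 0.12), Synpo2 (-0.36 to 0.0067) and Xist (-0.12 to 1.78). Leaving out con_355 gives the mutants-only difference, so the reversed ends of Egr4, Foxp1, Mbp, Pde10a and Rrn3 repeat the values above. No paired analysis was possible because the number ranges share only 1 replicate number, which names different animals. Signals near background carry little information on size.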
